A study of Homo sapiens with 17 samples.

Results

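Of 19141 genes counted, 42 were examined here that cells use to sense RNA or that interferon induces. They were chosen by function and placed in 8 role groups, from RNA sensors and their adaptor to antiviral restriction factors. The measurements came from YB5 cells, a line derived from the SW48 colon cancer line that carries a single insertion of GFP behind a methylated, silenced CMV promoter. These cells had received 250 nM toyocamycin, an adenosine analog that the study examined as an inhibitor of the transcription kinase CDK9, or its vehicle DMSO, and their polyA-selected RNA was sequenced. DMSO had 2 libraries at 2 h, 1 each at 10, 24 and 48 h and 3 at the last time point, and toyocamycin had 2, 2, 1, 1 and 3. The labels call the last time point 72 h and the paper 96 h, and 96 h is used below. Libraries of an arm were biological replicates of 1 cell line, so their spread says nothing about other lines. Batch 2 of the labels held replicate 2 of both arms at 2 h and at 10 h, including the only DMSO library of 10 h among the labelled samples.

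Cells detect double-stranded RNA through the cytosolic helicases RIG-I and MDA5, which signal through the mitochondrial adaptor MAVS, and through TLR3 in endosomes. The factors IRF3 and IRF7 then switch on interferon genes, and IRF3 can also induce some antiviral genes directly. Secreted interferon binds its receptors, the kinases JAK1 and TYK2 phosphorylate STAT factors, and a complex that holds STAT2 and IRF9 binds the interferon-stimulated response element in the promoters of many genes. Their products bind or cut foreign RNA, block translation, attach the ubiquitin-like protein ISG15 to other proteins or hold viruses at membranes. In colon cancer lines this pathway is known for responding to drugs that raise endogenous double-stranded RNA.

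Promoter sequence was available in the RefSeq table for GRCh38.p14 for 35 of the 42 genes, as 300 bases from 250 before to 50 after the start. The core letters of the response element, taken as GAAA, any 2 bases, GAAA on either strand, were found in 19 of these 35 promoters (54.3%). The same letters were present in 3.57% of all 35116 promoters of that table. Matches could overlap and were counted at every position. By direction at 96 h, described below, a match was present in 8 of the 9 promoters available for genes that rose and in 6 of the 17 for genes that fell. It was present in 2 of 3 for genes that passed in neither direction and in 3 of 6 for genes not tested. The 8 include HERC5 and IFI27, which entered the test only through toyocamycin. The share by direction over all genes was not computed, and a link between match and direction was not tested. The 200 bases before the start are shown for the first 2 rising and first 2 falling genes with an entry, and for ISG15 and OAS3, which rose and fell and both hold matches and were chosen after their values were seen. Capitals mark the matched letters, and all are written 5′ to 3′ along the gene's own strand. IFIT1 lies at chr10:89392423-89392622 (+), IFI35 at chr17:43006584-43006783 (+), ISG15 at chr1:1013297-1013496 (+), SP100 at chr2:230416001-230416200 (+), UBE2L6 at chr11:57567936-57568135 (-) and OAS3 at chr12:112938274-112938473 (+).
IFIT1: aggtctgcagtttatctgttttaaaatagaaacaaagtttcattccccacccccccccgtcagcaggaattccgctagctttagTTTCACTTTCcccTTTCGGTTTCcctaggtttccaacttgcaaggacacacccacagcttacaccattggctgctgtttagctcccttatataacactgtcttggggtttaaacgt
IFI35: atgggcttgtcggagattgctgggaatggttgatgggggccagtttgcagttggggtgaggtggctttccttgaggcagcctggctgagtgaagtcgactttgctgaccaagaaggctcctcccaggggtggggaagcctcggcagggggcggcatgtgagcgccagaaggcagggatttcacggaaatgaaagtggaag
ISG15: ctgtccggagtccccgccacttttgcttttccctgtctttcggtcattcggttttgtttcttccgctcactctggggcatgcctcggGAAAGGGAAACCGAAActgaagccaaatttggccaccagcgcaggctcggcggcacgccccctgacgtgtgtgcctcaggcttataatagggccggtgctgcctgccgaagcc
SP100: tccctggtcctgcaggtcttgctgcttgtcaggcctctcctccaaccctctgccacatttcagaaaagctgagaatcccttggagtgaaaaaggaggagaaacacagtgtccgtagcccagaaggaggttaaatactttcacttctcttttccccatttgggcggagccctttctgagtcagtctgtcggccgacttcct
UBE2L6: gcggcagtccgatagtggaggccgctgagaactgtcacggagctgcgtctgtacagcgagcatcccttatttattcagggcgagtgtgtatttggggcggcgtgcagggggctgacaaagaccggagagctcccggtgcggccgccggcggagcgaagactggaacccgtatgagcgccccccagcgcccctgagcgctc
OAS3: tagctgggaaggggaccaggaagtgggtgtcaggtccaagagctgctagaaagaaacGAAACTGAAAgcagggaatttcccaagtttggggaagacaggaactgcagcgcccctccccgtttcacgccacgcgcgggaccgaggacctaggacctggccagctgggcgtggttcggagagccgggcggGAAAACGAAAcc
IFIT1 and ISG15, which rose at 96 h, each hold 2 matches, at -116 to -94 and at -113 to -98 from the start. OAS3 also holds 2, and fell. IFI35 rose and SP100 and UBE2L6 fell with no such letters in the window, which says nothing about whether a factor binds there.

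The libraries held between 8735465 and 22121364 counts on genes. Replicate 2 of toyocamycin at 10 h was the shallowest and stood apart. Of 4241 genes with at most 1 count in every DMSO library, 3024 (71.3%) had over 3 counts there, against 0.472% to 25.9% in the other toyocamycin libraries. The summed CPM (reads of a gene relative to the TMM-scaled library total, the unit used below) of 10 colon epithelial markers lay between 6350 and 7380 in DMSO at 96 h and between 571 and 599 with toyocamycin, where 9 of 10 were lower and CDX2 was higher. Immune markers summed to 0.139 to 0.396 CPM in DMSO at 96 h and 18.0 to 20.5 CPM with toyocamycin, of which CD14, CD68 and ITGAX passed the test while CD3D, LILRA4 and CLEC4C had 0 counts in every library of 96 h. Fibroblast and endothelial markers summed to 0.790 to 1.59 CPM and 3.83 to 24.0 CPM, with 6 of 7 tested higher. CD68, ITGAX, DCN and PECAM1 reached the minimum level for testing in no DMSO library. They entered the test only through toyocamycin, so a rise in them was largely fixed by that entry. PTPRC entered in the same way and did not pass at 96 h. Of 9 immune markers at or under 3 counts in every DMSO library of 96 h, 3 passed 3 counts in every toyocamycin library (33.3%). Of 5 such fibroblast and endothelial markers 2 did (40%), against 26.1% of all genes at that floor. The part of these markers in the results on the 42 genes was not tested. In bulk RNA, fewer cells of a type and less RNA per cell cannot be told apart.

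At 96 h the 42 genes did not move together. Within them, 12 rose and 19 fell at an adjusted p under 0.1 (Benjamini-Hochberg) in the quasi-likelihood test of edgeR, 4 passed in neither direction and 7 had too few counts to be tested. The genes that rose were 28.6% of the 42 and 34.3% of the 35 tested, while 47.0% of all 14491 genes tested rose. Those that fell were 45.2% of the 42 and 54.3% of the 35 tested, while 41.9% of all genes tested fell. HERC5, IFI27 and MX2 reached the minimum level for testing in no DMSO library of the fit, so they entered the test only through toyocamycin. A rise in them was largely fixed by that entry, and counts of rises include them. The median log2 fold change was -0.78 over the 35 members tested and 0.18 over all genes. These values are relative to TMM scaling. Scaling on library size moved the median of all genes at 96 h by -0.60 and scaling on the mitochondrially encoded genes by -1.07. The members that rose then numbered 8 and 7, while 39.0% and 29.0% of all genes tested rose.

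**Figure D1:**
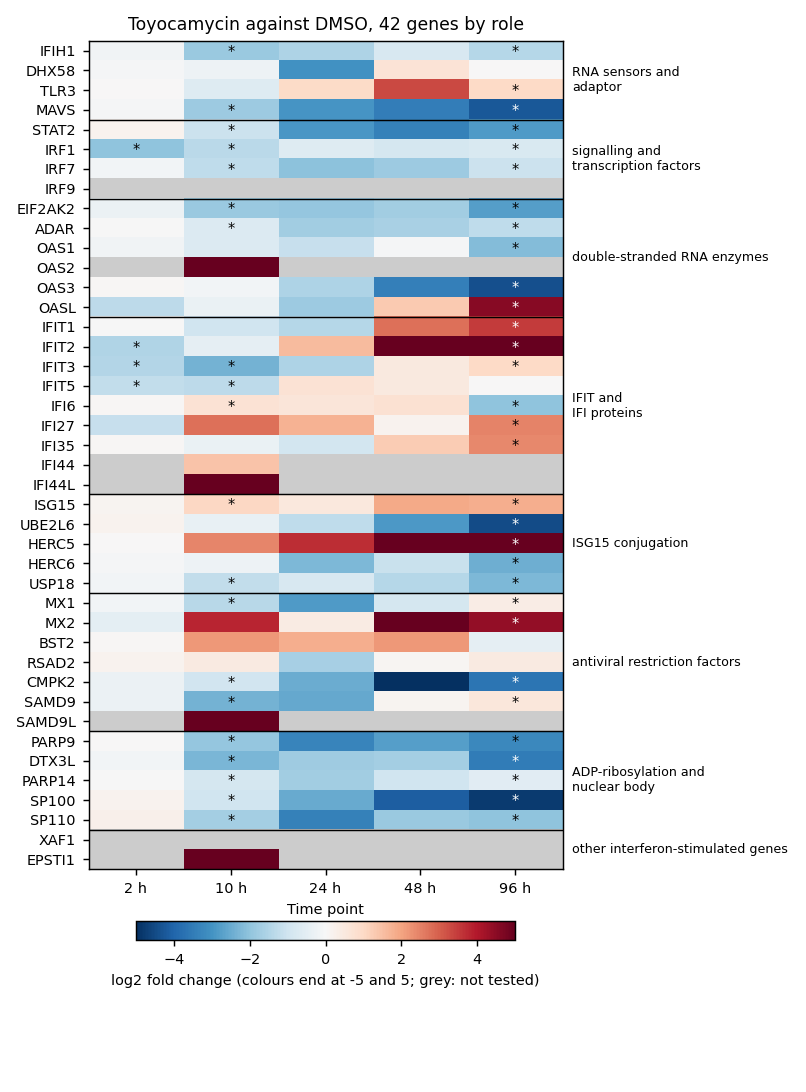
Heat map of the log2 fold change of toyocamycin against DMSO (colour, ending at -5 and 5) for the 42 genes (rows, grouped by role) at 5 time points (columns). Asterisks mark an adjusted p under 0.1 at 2, 10 and 96 h, and 24 and 48 h have 1 library per arm and no test. IFIT2 passes from blue at 2 h to the red end at 48 and 96 h, while MAVS and STAT2 are blue from 10 h on.

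Among the RNA sensors and their adaptor, MAVS, the hub through which the cytosolic helicases signal (chr20:3846799-3876123), fell most. It stood at 115, 127 and 110 CPM in DMSO at 96 h and at 4.72, 6.02 and 7.39 CPM with toyocamycin, a fall of 18.9-fold (log2 fold change -4.24, SE 0.163, edgeR adjusted p = 3.46e-12). The groups were far apart, and the level was already 42.6 and 46.2 CPM at 10 h, against 155 CPM in the DMSO library. IFIH1, which encodes the double-stranded RNA helicase MDA5, had 11.1, 8.92 and 10.6 CPM in DMSO and 3.64, 3.71 and 3.82 CPM with toyocamycin at 96 h, a fall of 2.68-fold (edgeR adjusted p = 3.42e-06). TLR3, the endosomal receptor, had 5.20, 4.37 and 7.55 CPM in DMSO and 15.3, 7.88 and 10.2 CPM with toyocamycin at 96 h (log2 fold change 0.99, SE 0.283, edgeR adjusted p = 0.00424). All TLR3 values with toyocamycin lay above those of DMSO, the nearest by a small margin, and its log2 fold change was 0.39 with library size scaling (edgeR adjusted p = 0.208) and -0.00460 with mitochondrial scaling. DHX58, which encodes the regulatory helicase LGP2, did not pass (log2 fold change 0.02, SE 0.238, edgeR adjusted p = 0.935), and its libraries of the 2 arms overlapped.

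The tested members for signalling and transcription fell without exception at 96 h, while 41.9% of all genes tested fell. STAT2, a subunit of the interferon-activated complex, had 19.0, 21.1 and 19.1 CPM in DMSO and 2.36, 3.06 and 2.61 CPM with toyocamycin, a fall of 7.20-fold (SE of log2 0.180, edgeR adjusted p = 6.28e-10). IRF7, which drives interferon alpha genes, had 52.5, 45.5 and 34.0 CPM against 16.3, 23.4 and 20.7 CPM, a fall of 2.13-fold (edgeR adjusted p = 0.0013). IRF1, an early interferon-response factor, had 12.8, 9.43 and 9.18 CPM against 5.21 to 6.67 CPM over the 3 toyocamycin libraries, a fall of 1.72-fold (edgeR adjusted p = 0.00159). In these members no library with toyocamycin reached the lowest DMSO library of 96 h. IRF9 had so few counts in any library that it was not tested, and 23.9% of its annotated exonic bases lie in exons of another gene on its strand, so its level cannot be read from these counts.

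Among the enzymes that bind double-stranded RNA, 4 of 5 tested fell, against 41.9% of all genes tested. OAS3, which makes the 2-5A messenger, had 133, 133 and 125 CPM in DMSO and 5.70, 5.10 and 7.47 CPM with toyocamycin at 96 h, a fall of 20.9-fold (SE of log2 0.161, edgeR adjusted p = 2.28e-12). EIF2AK2, which encodes the translation-blocking kinase PKR, had 60.5, 55.2 and 79.1 CPM against 11.2, 9.45 and 7.73 CPM, a fall of 6.72-fold (edgeR adjusted p = 5.41e-09). ADAR, the enzyme that edits adenosines in double-stranded RNA, fell by 2.41-fold and OAS1 by 4.43-fold, with edgeR adjusted p = 5.00e-08 and 1.62e-05. In each of these the groups were separate. OASL, an OAS family member that makes no 2-5A and enhances RIG-I signalling, went the other way. It had 0.149, 0.232 and 0.300 CPM in DMSO and 4.62, 4.73 and 6.95 CPM with toyocamycin, a rise of 23.5-fold (log2 fold change 4.56, SE 0.481, edgeR adjusted p = 2.77e-07). OAS2 was not tested, with 0 CPM in every DMSO library of 96 h and 0.0983, 0.741 and 0.695 CPM with toyocamycin.

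OAS1, OAS3 and OAS2 lie side by side on chromosome 12, at chr12:112905856-112933219, chr12:112938051-112976460 and chr12:112978395-113011723, whereas OASL lies farther along at chr12:121017763-121039246. The 3 neighbours therefore held 2 falls and 1 untested gene, and the single rise among the tested genes of the family was outside them. The untested OAS2 was called higher at 96 h with no filter on low counts, and with all 17 libraries and batch as a term.

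Of the 7 IFIT and IFI genes tested, 5 rose, while 47.0% of all genes tested did. Among these 5 was the largest rise of the members tested. IFIT2, whose product binds viral RNA and limits its translation, had 0.694, 0.279 and 0.858 CPM in DMSO and 52.3, 42.4 and 51.4 CPM with toyocamycin at 96 h, a rise of 80.2-fold (log2 fold change 6.33, SE 0.268, edgeR adjusted p = 8.51e-12). IFIT1, which recognises RNA caps that lack ribose methylation, had 1.04, 0.836 and 1.33 CPM against 11.2, 12.8 and 11.9 CPM, a rise of 11.3-fold (SE of log2 0.266, edgeR adjusted p = 5.42e-09). IFIT3, which stabilises IFIT1, had 1.59, 1.44 and 2.53 CPM against 3.05, 3.43 and 4.26 CPM (log2 fold change 0.98, SE 0.288, edgeR adjusted p = 0.00512). Its rise was 0.37 on the log2 scale with library size scaling (edgeR adjusted p = 0.238) and -0.04 with mitochondrial scaling, whereas IFIT2 and IFIT1 passed under every scaling tried. IFIT5 had 9.36, 9.34 and 9.40 CPM against 11.6, 7.78 and 8.34 CPM and did not pass (log2 fold change 0.01, SE 0.223, edgeR adjusted p = 0.969).

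These 4 genes form 1 cluster on the plus strand of chromosome 10. IFIT2 lies at chr10:89283694-89309271, IFIT3 at chr10:89327307-89377473, IFIT1 at chr10:89392546-89406487 and IFIT5 at chr10:89414568-89421605. The changes along the cluster were thus 6.33, 0.98, 3.50 and 0.01 in log2 fold change, with the largest at its first gene. LIPA lies on the other strand over parts of the cluster, and the strand setting of the counting was not given in the sources used here. Exons of LIPA cover 1.5% of the exonic bases of IFIT2 and 1.9% of those of IFIT3, and an unnamed gene on the same strand covers 12.1% of those of IFIT2.

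Among the IFI genes, IFI35 had 10.6, 10.8 and 8.15 CPM in DMSO and 49.8 to 51.7 CPM in the 3 toyocamycin libraries, a rise of 5.25-fold (SE of log2 0.158, edgeR adjusted p = 1.11e-09). The product of IFI35 is a cytosolic interferon-induced protein, and every toyocamycin library was far above every DMSO library. IFI27 had 4, 3 and 4 counts in DMSO and 7, 11 and 13 counts with toyocamycin (edgeR adjusted p = 4.53e-04), and as it entered the test only through toyocamycin, the size of its rise is uncertain. IFI6, which encodes a mitochondrial protein that delays apoptosis, fell from 8.27, 9.85 and 7.94 CPM to 1.87, 1.67 and 2.69 CPM (fold 4.06, edgeR adjusted p = 3.36e-07). Its single libraries of 24 h had stood at 23.0 CPM in DMSO and 34.9 CPM with toyocamycin, so the value above DMSO at 24 h was followed by one below it at 96 h. IFI44 and IFI44L were too low to be tested.

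**Figure D2:**
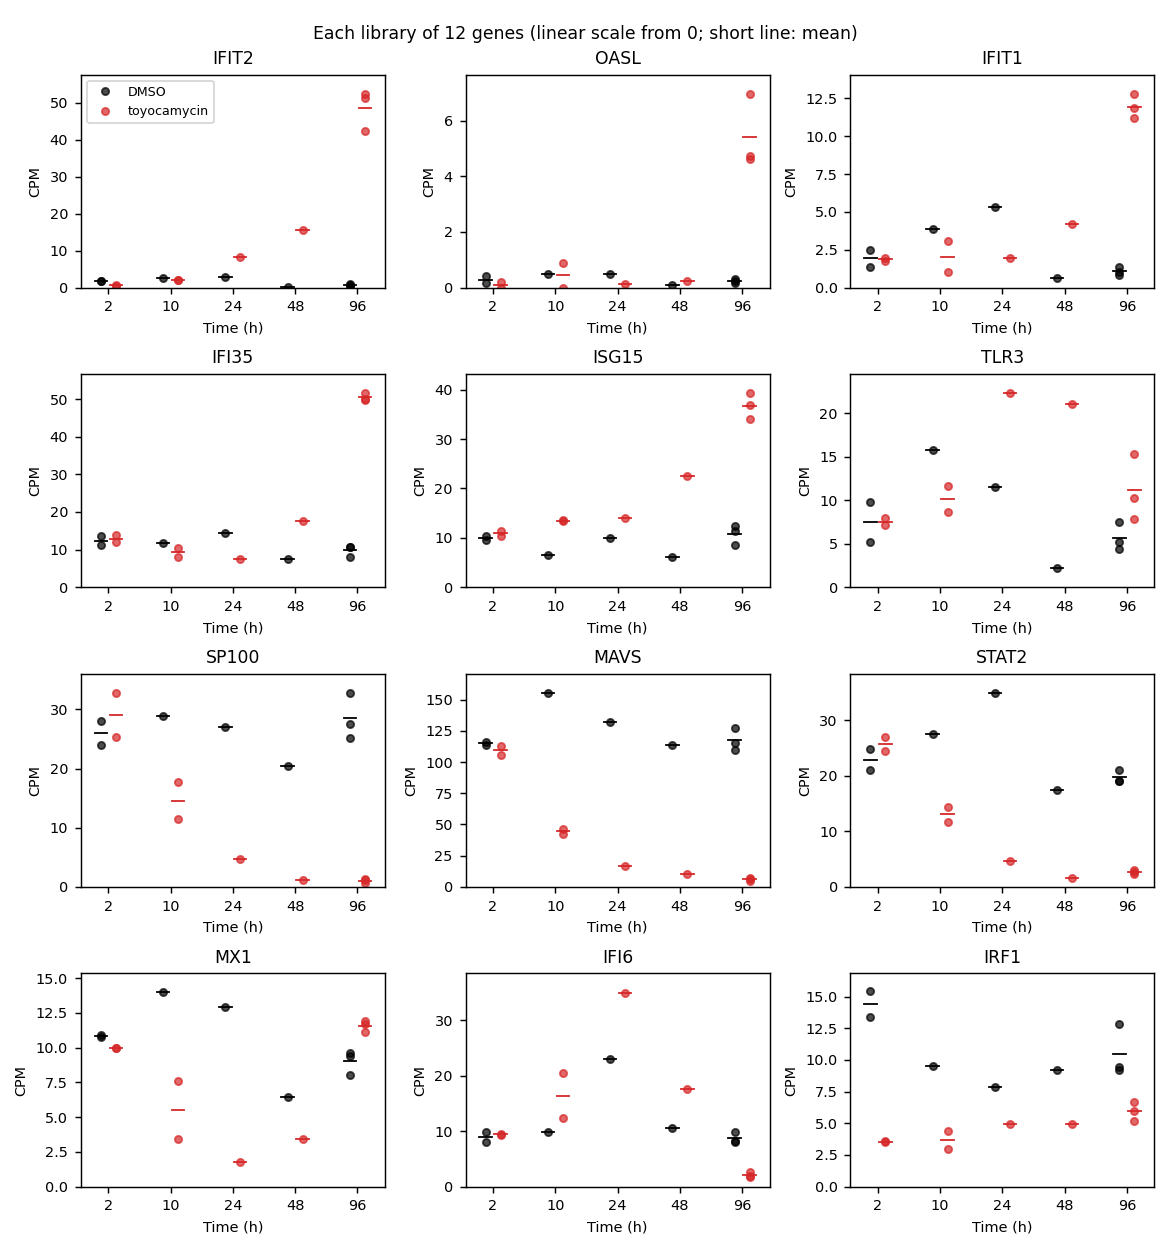
Scaled CPM (vertical axis, linear from 0) of 12 genes in each library at 2, 10, 24, 48 and 96 h (horizontal axis), with DMSO in black, toyocamycin in red and a short line at the mean. IFIT2 reaches 42.4 to 52.3 CPM with toyocamycin at 96 h and MAVS drops to 4.72 to 7.39 CPM, while MX1 is lowest at 24 h and above DMSO at 96 h.

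In the ISG15 pathway, the modifier and an enzyme that attaches it moved in opposite directions. ISG15 had 12.4, 11.4 and 8.58 CPM in DMSO and 39.4, 34.0 and 36.9 CPM with toyocamycin at 96 h, a rise of 3.49-fold (log2 fold change 1.80, SE 0.163, edgeR adjusted p = 4.47e-08). It was 13.6 and 13.4 CPM at 10 h, against 6.58 CPM in the DMSO library, and its log2 fold change at 96 h with mitochondrial scaling was 0.70 (edgeR adjusted p = 0.135). UBE2L6, the E2 enzyme that carries ISG15, had 46.0, 54.1 and 46.3 CPM in DMSO and 1.08, 2.69 and 2.52 CPM with toyocamycin, a fall of 22.5-fold (SE of log2 0.229, edgeR adjusted p = 5.60e-11). USP18, the protease that removes ISG15, fell by 4.79-fold, from 18.8, 21.6 and 20.4 CPM to 3.73, 4.91 and 3.74 CPM (edgeR adjusted p = 8.45e-09). HERC6 fell by 5.38-fold (edgeR adjusted p = 3.89e-08).

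HERC5, the main E3 ligase for ISG15, was at most at 3 counts in every DMSO library of 96 h and over 3 in every toyocamycin library, at 0.688, 0.463 and 0.869 CPM. It was at least 4.85-fold higher, taking the floor of 3 counts per library for DMSO. Its neighbour HERC6 (chr4:88378739-88443097, with HERC5 at chr4:88457119-88506163) stood at 9.91, 9.85 and 9.74 CPM in DMSO and at 1.38, 1.85 and 2.09 CPM with toyocamycin. The neighbours thus moved in opposite directions. Of the 42 genes, 8 were at or under 3 counts in every DMSO library of 96 h, and of these HERC5 and MX2 passed 3 counts in all libraries with toyocamycin. Over all genes, 1663 of 6375 genes at that floor did so (26.1%), against 25% of these members.

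Among the antiviral restriction factors, 3 of 6 tested rose, against 47.0% of all genes tested, and MX2 entered the test only through toyocamycin. MX2, a GTPase that blocks nuclear entry of viruses, was at least 5.46-fold higher at 96 h, with 0.491, 0.741 and 1.04 CPM with toyocamycin. MX1, its paralog (chr21:41420020-41470071, next to MX2 at chr21:41361999-41409393), had 9.41, 9.61 and 8.03 CPM in DMSO and 11.7, 11.9 and 11.1 CPM with toyocamycin (fold 1.31, edgeR adjusted p = 0.031). SAMD9, a cytosolic antiviral protein, had 9.51, 7.38 and 11.2 CPM against 16.5, 12.2 and 11.8 CPM (fold 1.47, edgeR adjusted p = 0.0348). The rises of MX1 and SAMD9 were small, the groups were separate, by a narrow margin for SAMD9, and neither was called with library size or mitochondrial scaling. MX1 was also not called with batch as a term or without replicate 3 of DMSO at 96 h, and SAMD9 was not without replicate 2 of DMSO or replicate 1 of toyocamycin at 96 h. RSAD2, which encodes viperin, and BST2, which encodes tetherin, did not pass, with log2 fold changes of 0.45 (SE 0.446) and -0.46 (SE 0.698).

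CMPK2, a nucleotide kinase whose gene starts next to RSAD2 on the other strand, fell from 5.50, 6.04 and 7.64 CPM to 0.295, 0.834 and 0.348 CPM at 96 h (fold 12.5, SE of log2 0.361, edgeR adjusted p = 1.31e-07). CMPK2 lies at chr2:6840570-6866635 and RSAD2 at chr2:6865557-6898239, and the exons that they share on opposite strands make up 8% of the exonic bases of CMPK2.

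The members for ADP-ribosylation and nuclear bodies fell together, 5 of 5, while 41.9% of all genes tested fell. SP100, a component of PML nuclear bodies, fell most of the members tested, from 25.2, 27.6 and 32.7 CPM to 1.28, 1.11 and 0.695 CPM at 96 h (fold 27.2, log2 fold change -4.77, SE 0.241, edgeR adjusted p = 5.09e-11). DTX3L, an E3 ligase that acts with PARP9, fell from 25.9, 28.3 and 34.3 CPM to 3.44, 1.48 and 2.78 CPM (fold 11.3, edgeR adjusted p = 2.93e-09). PARP9 itself fell by 9.35-fold, from between 13.2 and 16.4 CPM in the 3 DMSO libraries to 1.67, 1.67 and 1.22 CPM (edgeR adjusted p = 3.70e-09). The starts of DTX3L (chr3:122564338-122575203) and PARP9 (chr3:122527924-122564577) overlap on opposite strands. SP110 fell by 4.06-fold and PARP14 by 1.47-fold, with edgeR adjusted p = 1.34e-06 and 0.00451. XAF1 and EPSTI1, the remaining members, were not tested at 96 h, with 0 counts in every DMSO library of that time point.

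**Figure D3:**
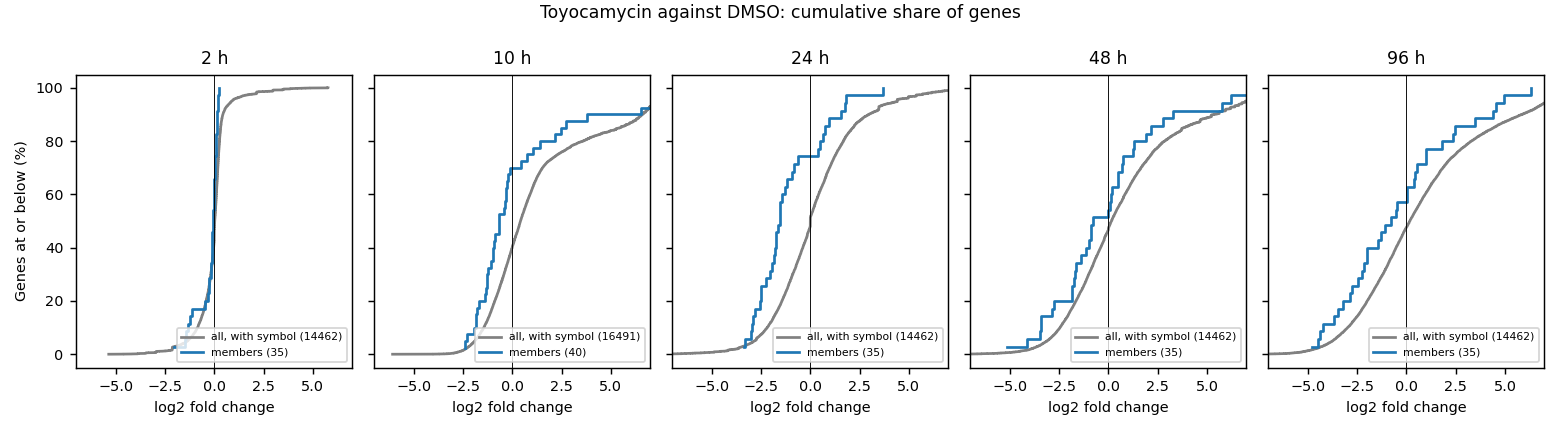
Cumulative share of genes (vertical axis, percent) at or below each log2 fold change of toyocamycin against DMSO (horizontal axis), for the members tested (blue) and all genes tested that have a symbol (grey), with 1 panel per time point. The medians of the members are -0.06, -0.66, -1.54, -0.80 and -0.78 at 2, 10, 24, 48 and 96 h, and those of all genes are 0.02, 0.42, 0.00, 0.16 and 0.18.

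At 2 h, 4 of the 42 genes (9.52%) fell, and 0 rose at an adjusted p under 0.1 in edgeR, with 0 higher at an unadjusted p under 0.05 and 0 by the DESeq2 Wald test. Among all genes tested 8.42% fell and 0.518% rose, and the 4 falls are 11.4% of the 35 members tested. IRF1 had 15.4 and 13.4 CPM in DMSO and 3.48 and 3.63 CPM with toyocamycin (log2 fold change -2.02, edgeR adjusted p = 8.24e-05), with -2.11 within batch 1 and -1.85 within batch 2. IFIT2 had 1.72 and 1.75 CPM against 0.497 and 0.758 CPM (log2 fold change -1.49, edgeR adjusted p = 0.0262). IFIT3 had 2.27 and 2.26 CPM against 0.787 and 0.867 CPM (log2 fold change -1.45, edgeR adjusted p = 0.0291). IFIT5 had 7.53 and 12.9 CPM against 3.69 and 5.04 CPM (log2 fold change -1.23, edgeR adjusted p = 0.0113). In these 4 genes both toyocamycin libraries lay below both DMSO libraries. Within batches the log2 fold change was -1.59 and -1.10 for IFIT2, -1.41 and -1.28 for IFIT3 and -1.01 and -1.34 for IFIT5. Without replicate 1 of toyocamycin at 2 h, 1 member fell, IRF1, while IFIT2, IFIT3 and IFIT5 had edgeR adjusted p = 0.234, 0.171 and 0.126.

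IFIT1, which lies between IFIT3 and IFIT5, had 1.39 and 2.47 CPM in DMSO and 1.78 and 1.95 CPM with toyocamycin at 2 h (log2 fold change -0.03, edgeR adjusted p = 1). MAVS, STAT2, OAS3 and ISG15 had log2 fold changes of -0.07, 0.17, 0.07 and 0.12 at 2 h, and none passed.

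At 10 h, 18 of the 42 genes fell, and 2 rose, ISG15 and IFI6, of 40 tested. DMSO had 1 library here, so the spread came from the groups with replicates, and the lone library is assumed to vary like them. Over all 16521 genes tested, 24.4% fell and 20.4% rose, against 42.9% and 4.76% of the 42. The 3 largest falls were those of SAMD9, from 16.0 CPM in the DMSO library to 2.21 and 4.09 CPM, DTX3L, from 46.6 CPM to 8.57 and 10.4 CPM, and IFIT3, from 4.05 CPM to at most 1.11 CPM. The log2 fold changes of these genes were -2.38, -2.30 and -2.38, with edgeR adjusted p = 2.13e-04, 3.59e-05 and 0.00427. IFI6 had 20.4 and 12.4 CPM with toyocamycin against 9.87 CPM in the DMSO library (edgeR adjusted p = 0.0703), and ISG15 passed with edgeR adjusted p = 0.0056. For most genes that fell, among them SAMD9, DTX3L, IFIT3 and PARP14, this DMSO library was the highest of any DMSO library. It was not for STAT2, IRF1, IRF7, USP18, CMPK2 and SP100. PARP14 had 60.2 CPM there and 27.6 and 38.2 CPM with toyocamycin, but 28.6 and 38.6 CPM in DMSO at 2 h. How far the falls rest on this library was not tested. The single DMSO library of 10 h belongs to batch 2, so only replicate 2 of toyocamycin gives a contrast within a batch, and that is the library that stood apart.

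In that library the genes OAS2, IFI44L, SAMD9L and EPSTI1 stood at 2.54, 2.10, 2.54 and 1.33 CPM, while replicate 1 had 0.0714, 0.286, 0 and 0 CPM and the DMSO library had 0 for each. With the 10 h libraries in the fit 16521 genes were tested, against 14491 without them. Of the members, these genes and IFI44 entered in this way, only through replicate 2 of toyocamycin at 10 h. None of these genes passed at 10 h. Without replicate 1 of toyocamycin at 10 h the members that rose numbered 9, and without replicate 2 they numbered 3, while 18 and 20 fell.

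At 24 and 48 h each arm had 1 library, so values are described without a test, as past 2-fold or not. At 24 h, 23 of the 42 genes (54.8%) were over 2-fold lower and 4 were over 2-fold higher. These are 65.7% and 11.4% of the 35 members in the fit, against 27.8% and 29.7% of all 14491 genes in it. At 48 h, 14 were over 2-fold lower and 9 over 2-fold higher. These are 40.0% and 25.7% of the 35, against 29.9% and 38.1% of all genes in the fit. The 4 genes past 2-fold higher at 24 h were IFIT2, at 2.80 CPM in DMSO and 8.32 CPM with toyocamycin, and IFI27, HERC5 and BST2, which were at or below 1.58 CPM in both libraries. IFIT2 stood at 0.289 and 15.6 CPM at 48 h. TLR3 stood at 11.5 and 22.3 CPM at 24 h and at 2.17 and 21.0 CPM at 48 h, where the DMSO library was the lowest of any DMSO library for this gene.

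The genes OASL, IFIT1, IFIT3, MX1 and SAMD9 were past 2-fold lower at 24 h and rose at 96 h. They are 11.9% of the 42 and 14.3% of the 35 tested, and 4.30% of all genes tested had both. Among members past 2-fold lower at 24 h, these 5 of 23 make 21.7%, against 15.4% among all such genes, and another 16 of the 23 fell at 96 h. MX1 had 12.9 CPM in DMSO and 1.79 CPM with toyocamycin at 24 h, and SAMD9 had 11.0 and 1.86 CPM. IFIT1 had 5.30 and 1.93 CPM at 24 h and then 0.626 and 4.23 CPM at 48 h. The DMSO library of 24 h was the highest and that of 48 h the lowest of any DMSO library for IFIT1. With toyocamycin at 2 h it had 1.78 and 1.95 CPM, near its value at 24 h. OASL was at 0.506 and 0.138 CPM at 24 h, where counts are few. This group was chosen after its values were seen.

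The fit also tested how far the effect at 96 h departs from that at 2 h. This difference was positive in 14 members and negative in 18 at an adjusted p under 0.1, against 38.0% and 38.1% of all genes. For IFIT2 it was 7.81 on the log2 scale (edgeR adjusted p = 1.09e-09), as the gene was lower at 2 h and higher at 96 h. IRF1 also had a positive difference, 1.24 (edgeR adjusted p = 0.00185), since its fall was larger at 2 h than at 96 h. MAVS had -4.17 and STAT2 had -3.01, with edgeR adjusted p = 5.63e-10 and 4.11e-08.

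DMSO cells changed as well between 2 and 96 h. USP18 was higher at 96 h, and IFIH1, DHX58, IFIT1, IFIT2 and PARP14 were lower, against 10.2% higher and 11.4% lower of all genes. These calls rest on single libraries: between 1 and 5 members were lower, and between 0 and 2 higher, when any 1 DMSO library of these times was left out. IFIT2 differed most, with a log2 difference of -1.49 (edgeR adjusted p = 0.00835), so its fold at 96 h is taken against a DMSO level lower than that at 2 h. Its 3 toyocamycin libraries of 96 h nevertheless lay above every DMSO library of any time point, the highest of which had 2.80 CPM.

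The genes above and below the members in the pathway were counted from lists of non-members. At 96 h, 7 of 21 interferon ligand genes were tested and all 7 of those rose. However, 5 of them reached the minimum level for testing in no DMSO library. These 5 entered the test only through toyocamycin, so a rise in them was largely fixed by that entry. Of 19 ligand genes at or under 3 counts in each DMSO library, 5 passed 3 counts in each toyocamycin library (26.3%), against 26.1% of all genes at that floor. IFNE, the epithelial interferon, had 8, 9 and 14 counts in DMSO and 153, 133 and 118 counts with toyocamycin (log2 fold change 4.73, SE 0.288, edgeR adjusted p = 4.09e-10). IFNA2 had 0 counts in each DMSO library and 48, 29 and 44 counts with toyocamycin, at least 26.9-fold higher. IFNB1, the first interferon made after viral infection in most cells, had 0, 1 and 0 counts with toyocamycin at 96 h. The interferon alpha genes are near-identical copies, so reads may be split or lost among them.

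Of the receptors and kinases, 8 of 9 tested fell at 96 h, while 41.9% of all genes tested fell. JAK1, a kinase of every interferon receptor, fell by 3.56, TYK2 by 3.43 and IFNAR1 by 0.75 on the log2 scale, with edgeR adjusted p = 4.37e-12, 1.03e-10 and 4.16e-04. IFNAR2 was not tested and shares 14.7% of its exonic bases with a readthrough gene. Of 18 other tested sensors and signalling genes, 7 rose and 11 fell, against 47.0% and 41.9% of all genes tested. Of these rises, 5 were of genes at the floor in DMSO (TLR7, TLR9, CGAS, STING1 and ZBP1), which entered the test only through toyocamycin. They are 5 of 8 genes of this list at the floor in DMSO (62.5%), against the 26.1% of all genes. RIGI, which encodes RIG-I, had 91, 85 and 127 counts in DMSO and 219, 192 and 213 counts with toyocamycin (log2 fold change 2.08, SE 0.197, edgeR adjusted p = 7.49e-08). CGAS, the DNA sensor, had 0 counts in each DMSO library and 53, 42 and 50 counts with toyocamycin, and was at least 32.3-fold higher. IRF3 fell by 1.30, TBK1 by 0.55 and TICAM1, the adaptor of TLR3, by 1.65 on the log2 scale (edgeR adjusted p = 1.97e-06, 0.00712 and 1.06e-05). IKBKE had 128, 131 and 127 counts in DMSO and 0 in each toyocamycin library.

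Antigen presentation, another target of interferon, had 12 of 15 genes lower and B2M higher. Beside the 96 h counts of this paragraph, 41.9% of all genes tested fell and 47.0% rose. NLRC5, the activator of class I genes, and PSMB9, an immunoproteasome subunit, fell by 4.40 and 4.41 on the log2 scale (edgeR adjusted p = 5.06e-10 and 1.06e-10). Of 26 further interferon-stimulated genes tested, 16 fell and 7 rose. ISG20, a nuclease, rose by 4.11 and IFITM3, a membrane restriction factor, fell by 3.47 on the log2 scale (edgeR adjusted p = 2.47e-11 and 7.05e-12). Of 15 negative regulators and clearance genes, 9 fell and 4 rose, among them SAMHD1, which fell by 3.84 (edgeR adjusted p = 1.96e-10). At 2 h, at an adjusted p under 0.1 in edgeR, 1 of 9 tested receptors and kinases fell. So did 4 of 18 other sensors and signalling genes, 3 of 15 negative regulators and clearance genes and 2 of 26 further interferon-stimulated genes. Of the tested ligand and antigen presentation genes 0 fell, while 8.42% of all genes tested did. Among the falls were IFNLR1, TICAM1, TRAF6, ZC3HAV1, SOCS1, SOCS3, PIAS1, ZNFX1 and TRAFD1.

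**Figure D4:**
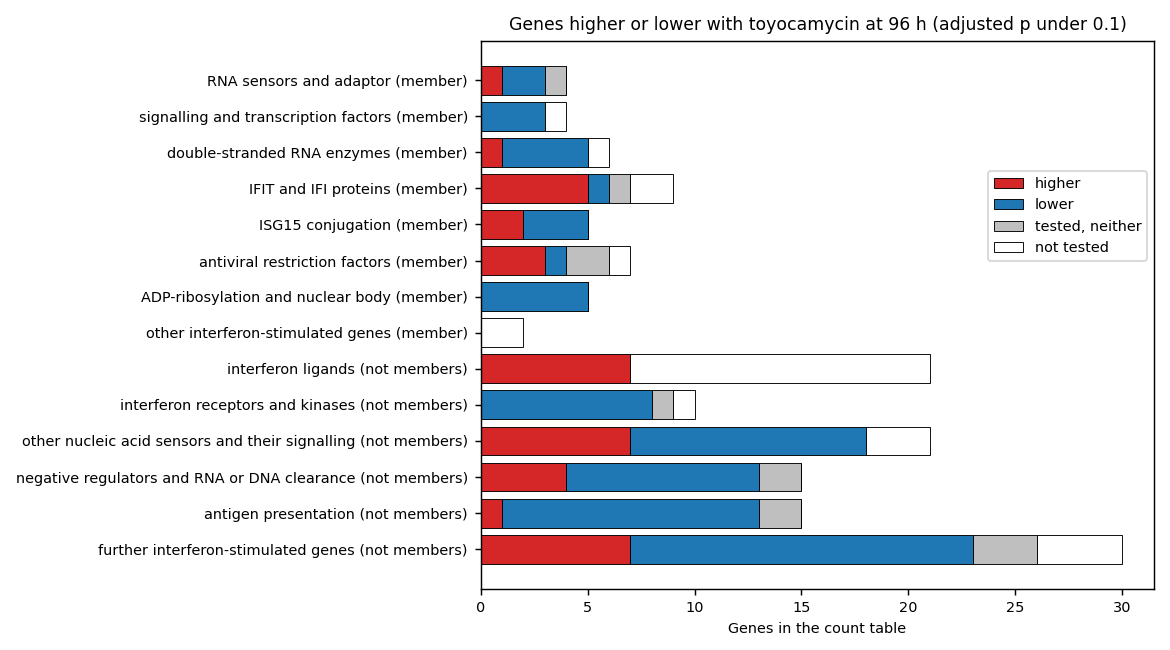
Number of genes in the count table (horizontal axis) of each member group and each list of non-members (vertical axis) that were higher, lower, tested without passing, or not tested with toyocamycin at 96 h. Receptors and kinases have 8 lower, and 5 of the 9 IFIT and IFI genes are higher. Over all genes tested, 41.9% were lower and 47.0% higher.

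Gene structure also differed between members that rose and fell. The 12 that rose had a median span of 20324 bases and 5 exons in the canonical transcript, and the 19 that fell had 36654 bases and 11 exons. Over all genes, those that rose had medians of 26277 bases and 7 exons, and those that fell 39423 bases and 11 exons. Across the 35 members, Spearman's rho between log2 fold change at 96 h and exon number was -0.340, close to the -0.302 across 14462 genes, as a description across genes of the same libraries.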

How the data were processed

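YB5 cells were treated with 250 nM toyocamycin or DMSO, and 17 libraries were grouped by the deposited labels. The authors aligned reads to GRCh38 with STAR 2.7.5a and deposited counts per gene for 19141 genes, without normalization. The strand setting of the counting was not given in the sources used here. The counts were used as deposited. The count table also holds 1 column named as replicate 1 of DMSO at 10 h, which matches no sample and was not used. The paper describes the 10 h time point as done in duplicate. The authors' own table of edgeR fold changes and p-values was not used either. The 42 members, the role groups and the other gene lists were chosen with earlier results of these data known. The 2 fits took their libraries and test from a previous analysis of these data.

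Counts were analysed in R 4.3.3 with edgeR 4.0.16 (filterByExpr, TMM, quasi-likelihood test in its edgeR 3 form), and DESeq2 1.42.0 and limma 3.58.1 served alternatives. Calls used a threshold of 0.1 on p-values adjusted by Benjamini-Hochberg over all genes tested. A fit of 14 libraries without 10 h (14491 genes, 35 members) gave 2, 24, 48 and 96 h, and a fit of all 17 libraries (16521 genes, 40 members) gave 10 h. CPM values use the TMM factors of all 17 libraries. Totals between 8735465 and 22121364 counts set the precision, and the floor of 3 counts per library covers counting error only. Positions are those of GENCODE 44 on GRCh38, and 19080 genes matched a symbol. Figures were drawn with matplotlib from Python 3.11.15.

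The genes named were the 6 largest rises and the 6 largest falls at 96 h with separate groups and a mean log2 CPM of 0 or more, every member called at 2 h, and IFIH1, DHX58, TLR3, MAVS, STAT2, IRF1, IRF7 and IRF9. Other genes named were chosen after their values were seen. The labels tie replicate number to batch at 2 h, where same-numbered libraries deviated together (r = 0.307 between arms). The results were recomputed with the size factors of DESeq2, with library size or mitochondrial scaling, and with other filters, batch as a term, a replicate block, the DESeq2 Wald test, a stricter threshold and leaving out each library, and edgeR 4's test and a minimum fold change of 2 were chosen after seeing the data. Some genes of the other lists are not reported here by name.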

Additional observations from a re-analysis of the deposited data

Results flagged for a closer look

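The effect of toyocamycin differed between 96 and 2 h, by edgeR's test of the difference itself, in 32 members. It was positive in 40.0% and negative in 51.4% of the 35 tested, against 38.0% and 38.1% of all 14491 genes tested. The count includes HERC5, IFI27 and MX2, which entered the test only through toyocamycin. Values are the log2 fold change at 96 h minus that at 2 h, at a Benjamini-Hochberg adjusted p under 0.1.

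Among the sensors and factors, the difference was -1.24 for IFIH1, 0.98 for TLR3, -4.17 for MAVS, -3.01 for STAT2, 1.24 for IRF1 and -0.98 for IRF7. IRF1 was below DMSO at both times, less so at 96 h.

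Among the enzymes that bind double-stranded RNA, it was -2.47 for EIF2AK2, -1.26 for ADAR, -1.98 for OAS1, -4.45 for OAS3 and 5.87 for OASL.

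Among the IFIT and IFI genes, it was 3.54 for IFIT1, 7.81 for IFIT2, 2.43 for IFIT3, 1.24 for IFIT5, -2.09 for IFI6, 3.61 for IFI27 and 2.34 for IFI35. IFIT2 and IFIT3 passed on opposite sides at the 2 times.

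In the ISG15 pathway, it was 1.68 for ISG15, -4.68 for UBE2L6, 4.95 for HERC5, -2.37 for HERC6 and -2.12 for USP18. The DMSO libraries of HERC5 were at the floor, so its value depends on the prior count.

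Among the restriction factors, it was 0.51 for MX1, 4.88 for MX2, -3.35 for CMPK2 and 0.84 for SAMD9, of which MX2 is also at the floor in DMSO.

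Among the ADP-ribosylation and nuclear body genes, it was -3.24 for PARP9, -3.38 for DTX3L, -0.54 for PARP14, -4.92 for SP100 and -2.27 for SP110.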

How the results depend on the processing

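Of 23 named fold changes at 2 and 96 h, 15 kept their direction and their side of the threshold under every alternative run, and of 332 alternative values 307 did so, 11 lost the threshold and 14 reversed. The cause of the changes below was not tested.

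With mitochondrial scaling, 1 member fell at 2 h, 0 rose at 10 h, 1 and 4 were past 2-fold higher at 24 and 48 h, 26 were past 2-fold lower at 48 h, 7 rose at 96 h, 5 had a positive difference between 96 and 2 h, and between DMSO at 96 and 2 h 0 were higher and 0 lower. Of all genes tested, 0.600% then fell at 2 h and 3.04% rose at 10 h. At 24 and 48 h, 8.98% and 20.1% of all genes were past 2-fold higher, and 59.1% were past 2-fold lower at 48 h. At 96 h 29.0% of all genes rose, and 19.4% had a positive difference. Between the DMSO times 3.89% were higher and 0.248% lower. With the same scaling TLR3 had -0.00460 and IFIT3 -0.04 on the log2 scale at 96 h.

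With library size scaling, 0 members rose at 10 h and 1 was past 2-fold higher at 24 h, and 0 and 8 were higher and lower between the DMSO times. The shares of all genes tested were 11.3%, 16.3%, 6.46% and 18.2%, in that order. With at least 10 counts in every library, 0 and 5 were past 2-fold higher at 24 and 48 h, 7 rose at 96 h and 9 had a positive difference, as fewer members were tested. With no filter, 7 and 14 were past 2-fold higher at 24 and 48 h. With batch as a term, 8 rose at 10 h, and 0 and 2 were higher and lower between the DMSO times. The shares of all genes tested were 37.8%, 6.60% and 7.47%, in that order. Counts under the filters, thresholds and tests of this paragraph come without a share of all genes. A minimum fold change of 2 left 1 fall at 2 h, and 0 rises and 7 falls at 10 h. At an adjusted p under 0.05, 1 rose at 10 h, and 0 and 2 differed between the DMSO times, where the DESeq2 Wald test found 2 lower.

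Without single libraries, 1 to 4 members fell at 2 h, with 1 without replicate 1 of toyocamycin. At 10 h, 3 to 9 rose. Between the DMSO times 0 to 2 were higher and 1 to 5 lower, with 2 lower without replicate 2 of 2 h, and 2, 1 and 3 lower without replicates 1, 2 and 3 of 96 h. The 1 higher member became 2 without replicate 1 of 2 h and 0 without replicate 2 of 2 h or of 96 h. IFIT5 at 96 h ranged from -0.18 to 0.12 and DHX58 from -0.14 to 0.21 without single libraries of 96 h. IFIT5 also reversed with library size (-0.59), mitochondrial scaling (-1.05), no filter (-0.03) and batch as a term (-0.02), and DHX58 in the same settings (-0.57, -1.04, -0.02 and -0.01). Neither had passed the threshold, but with library size and mitochondrial scaling both fell, with edgeR adjusted p = 0.021 and 0.0269 for IFIT5 and 0.0369 and 0.0346 for DHX58.

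With a replicate block, 5 members fell at 2 h and 9 rose and 19 fell at 96 h, within 1.5 times the counts without the block. The block at 96 h used the libraries of that time alone and tested 30 members, and IFI27, HERC5 and MX2 were not called. At 96 h same-numbered libraries did not deviate together (r = -0.105, 0.0427 and -0.0876). Low counts kept 7 members out of the test. OAS2, IFI44 and IFI44L were higher at 96 h with batch as a term, and these and SAMD9L were with no filter.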
